A study of Mus musculus with 6 samples.

Results

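The genes described here build, cut, trim and read the Notch signal: 35 genes for ligands, ligand ubiquitin ligases, sugar transferases, proteases, inhibitors and the nuclear complex. They were taken by their exact symbols from a fixed list, without the Notch receptors and without the target genes, and all 35 had a probe set on the array, among 18193 genes with a probe set of their own. Where a gene had several probe sets, the brightest one on average across the 6 arrays stood for it. Of the 35, 32 passed a filter on dim probe sets and were tested, which required the probe set to lie above its array's 40th percentile (5.26 to 5.30 on the log2 scale) on at least 3 of the 6 arrays.

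ICN2-positive mice (genotype Rosa-lsl-ICN2 Mx1-cre+) carry ICN2, which is Notch2's intracellular domain, as a transgene at the Rosa26 locus behind a stop cassette. ICN2-negative mice (genotype Mx1-cre+) were littermates with the recombinase alone. Both groups were 6 weeks old when injected, received 3 polyIC doses of 20 mcg per g, and gave bone marrow 1 week after the last dose. PolyIC induces interferon, which turns on Mx1-cre in many interferon-responsive cells and not only in blood cells, so the stop cassette can also be lost outside the sorted population. The sorted cells were cKit-positive and negative for Sca1 and lineage markers, and are called myeloerythroid progenitors in the labels. Each genotype had 3 arrays. All ICN2-positive samples were male and all ICN2-negative samples female, so the effects of sex and of genotype cannot be told apart. None of the 35 genes lies on the X or Y chromosome. The labels do not say whether replicates were separate animals. The p-values set each difference only against the scatter of these samples, and that scatter may be technical.

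Notch signalling starts when a Delta-like or Jagged ligand on one cell binds a Notch receptor on its neighbour. Mindbomb ubiquitin ligases drive uptake of the ligand, which pulls on the receptor and exposes it to ADAM proteases and then to gamma-secretase. The freed intracellular domain enters the nucleus, joins the DNA-binding protein Rbpj and a Mastermind coactivator, and recruits histone acetyltransferases in place of corepressors. ICN2 is made as the free domain, so it needs neither ligand nor cleavage but still depends on the nuclear complex. In blood formation, Notch activity is best known for directing early lymphoid progenitors to the T cell fate.

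The arrays were first checked against their labels. The Y-linked genes Eif2s3y, Kdm5d and Uty were higher on all 3 ICN2-positive arrays and Xist on all 3 ICN2-negative arrays, as the labelled sexes require. Kit was above the 40th percentile on all 6 arrays, and so were genes of granulocyte-monocyte progenitors such as Mpo and of erythroid progenitors such as Klf1. Ly6a, which encodes Sca1, was not analysed here. ICN2-positive replicate 1 stood apart, with a correlation of 0.966 to 0.974 to the other ICN2-positive arrays against 0.989 to 0.991 among the ICN2-negative arrays. The summed intensity of 10 granulocyte-monocyte progenitor genes was 11526 in ICN2-positive replicate 1, 67593 in replicate 2 and 60772 in replicate 3, against 89314 to 99359 on the ICN2-negative arrays, and all 10 had lower means with none called. B cell genes (8, among them Dntt, which fell with adjusted p = 0.0481) summed to 924 to 2110 in ICN2-positive cells, against 3754 to 14859 in ICN2-negative cells, and T cell genes (7, none called) to 1109 to 3201, against 337 to 730. The part of these marker shifts in the values below was not tested. In sorted bulk cells, fewer cells of a type and less RNA per cell cannot be told apart. Among the target genes, Hes1, a repressor induced by Notch, had log2 intensities of 7.38, 7.60 and 7.44 in ICN2-positive cells, against 5.96, 5.44 and 5.55 in ICN2-negative cells (difference 1.82, adjusted p = 0.00722 in limma).

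Promoters of 4 members are shown because these genes carried the largest difference (Kat2a), the lowest difference (its paralog Kat2b), the smallest adjusted p (Psen2) and the only call that appeared on leaving out an ICN2-positive array (Lfng). Each covers 250 bases before and 50 bases after an annotated start, from RefSeq on GRCm38.p6, written 5′ to 3′ on the strand of the gene, and for Kat2b and Psen2, which have 2 starts listed, the start farthest upstream is given. Capitals mark the core of the Rbpj binding motif, TGGGAA, or its reverse complement TTCCCA. They lie at chr11:100712418-100712717 on the minus strand for Kat2a, chr17:53566721-53567020 on the plus strand for Kat2b, chr1:180256251-180256550 on the minus strand for Psen2 and chr5:140607091-140607390 on the plus strand for Lfng.
Kat2a: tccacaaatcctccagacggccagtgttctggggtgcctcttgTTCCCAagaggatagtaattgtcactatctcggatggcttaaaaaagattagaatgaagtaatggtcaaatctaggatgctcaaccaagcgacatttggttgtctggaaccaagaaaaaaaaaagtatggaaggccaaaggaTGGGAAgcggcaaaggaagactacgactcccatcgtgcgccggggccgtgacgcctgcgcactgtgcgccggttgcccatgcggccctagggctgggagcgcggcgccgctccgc
Kat2b: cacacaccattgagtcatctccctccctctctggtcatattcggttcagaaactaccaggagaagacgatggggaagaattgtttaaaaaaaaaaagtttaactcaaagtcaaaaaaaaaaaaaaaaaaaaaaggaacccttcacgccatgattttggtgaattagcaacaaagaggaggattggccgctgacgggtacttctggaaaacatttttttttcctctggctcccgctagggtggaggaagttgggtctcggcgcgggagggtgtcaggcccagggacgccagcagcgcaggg
Psen2: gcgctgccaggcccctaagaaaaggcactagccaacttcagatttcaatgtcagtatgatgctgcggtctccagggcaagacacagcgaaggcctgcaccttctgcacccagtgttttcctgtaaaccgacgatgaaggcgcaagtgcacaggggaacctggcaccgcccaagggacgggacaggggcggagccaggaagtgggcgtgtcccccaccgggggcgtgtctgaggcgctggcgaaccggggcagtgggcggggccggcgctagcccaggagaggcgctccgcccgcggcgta
Lfng: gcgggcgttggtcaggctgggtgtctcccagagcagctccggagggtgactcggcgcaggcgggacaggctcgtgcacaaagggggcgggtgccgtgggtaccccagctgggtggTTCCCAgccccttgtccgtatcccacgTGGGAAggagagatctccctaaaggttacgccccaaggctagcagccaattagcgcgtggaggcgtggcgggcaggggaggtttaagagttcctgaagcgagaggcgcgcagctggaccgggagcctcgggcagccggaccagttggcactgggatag
Kat2a held 1 core on each strand, at -207 and -65 from the start, and Lfng held 1 on each strand, at -135 and -108. The windows printed for Kat2b and Psen2 held none, while the other Psen2 window held 1. Among the 30 members with a promoter in the table, 9 (30.0%) held the core in at least 1 window, against 28.3% of 27025 genes, and the share of windows was 23.8% of 42 against 25.6% of 32851. The members were thus near the background in this respect, and a match is no evidence of binding.

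The main comparison asked whether the level of the machinery itself differed between sorted cells of ICN2-positive and ICN2-negative mice. No member rose and none fell at an adjusted p of 0.05 in limma. Over all 12834 genes tested, 4.35% were called, 2.58% higher and 1.77% lower, a share that would correspond to 1.39 of 32 genes. The absence of calls is therefore close to the background and is not particular to the members. At an unadjusted p under 0.05, 8 of the 32 (25.0%) passed, 3 higher and 5 lower, against 27.4% of all genes. The smallest adjusted p was 0.0645.

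The differences were small and mostly well bounded. None of the 32 differed by 2-fold or more, against 7.43% of all genes, and the largest difference was 0.65 on the log2 scale. The 95% interval of the fit lay within 2-fold in both directions for 29 of the 32 (90.6%), against 81.1% of all genes. The exceptions were Kat2a (0.19 to 1.10), Lfng (-1.05 to 0.32) and Aph1b (-1.13 to 0.43). The median size of a difference, regardless of sign, was 0.23 for the members and 0.18 for all genes, and the median standard error was 0.09 and 0.12. Of the genes called over the whole array, 24.7% differed by no more than the largest member difference, so a difference of that size could pass in some genes. The smallest difference called among all genes was 0.33, above the members' median size of 0.23. No gene with a difference as small as that median was called.

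**Figure D1:**
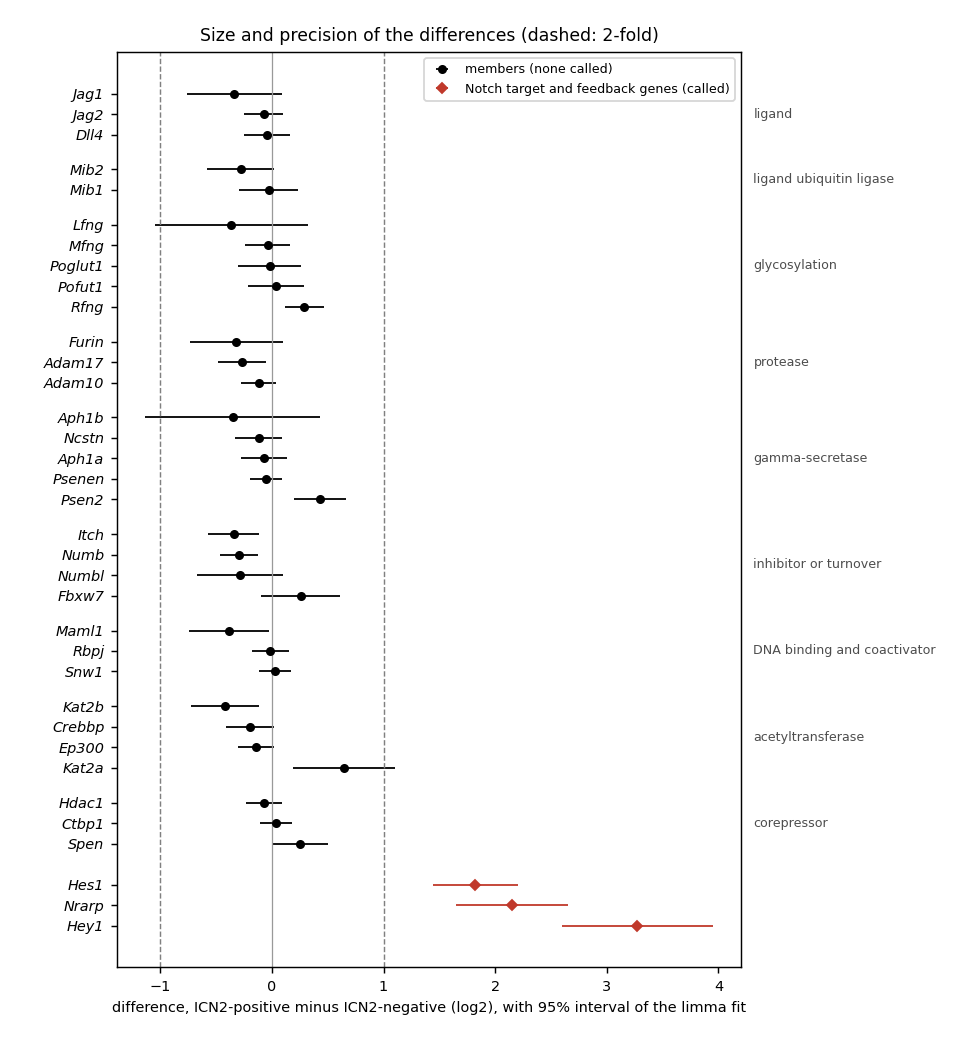
Difference between ICN2-positive and ICN2-negative cells (x axis, log2) for each of the 32 members tested, grouped by role, with the 95% interval of the limma fit as bars (n = 3 arrays each). All members lie between -0.42 and 0.65, while the called target and feedback genes Hes1, Nrarp and Hey1 at the bottom lie between 1.82 and 3.27.

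By sign, 24 of the 32 had lower means in ICN2-positive cells (75.0%), against 47.0% of all genes, and the median difference was -0.07 for the members and 0.02 for all genes. In 15 of the 32 (46.9%) the groups did not overlap, 4 higher and 11 lower in ICN2-positive cells, against 37.5% of all genes. An exact permutation test of 3 arrays against 3 cannot go below p = 0.1, so separation alone is a description. With the mean of probe sets, 9 of 31 members (29.0%) had separate groups, against 37.5% of all genes. ICN2-positive replicate 1 was the ICN2-positive array farthest from the ICN2-negative mean for 14 of the 32 (43.8%), against 54.5% of all genes. The members' median lay at -0.12, -0.07 and -0.09 from the ICN2-negative means in ICN2-positive replicates 1, 2 and 3. These 3 values share the same ICN2-negative means.

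**Figure D2:**
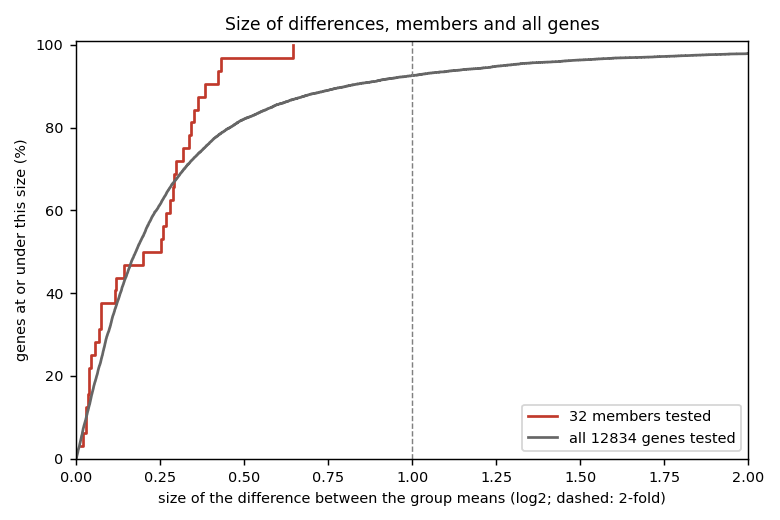
Cumulative share of genes (y axis, percent) whose group means differ by no more than the value on the x axis (log2, ICN2-positive against ICN2-negative), for the 32 members tested and for all 12834 genes tested. The members' curve ends at 0.65, and 7.43% of all genes lie at or beyond the dashed 2-fold line.

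**Figure D3:**
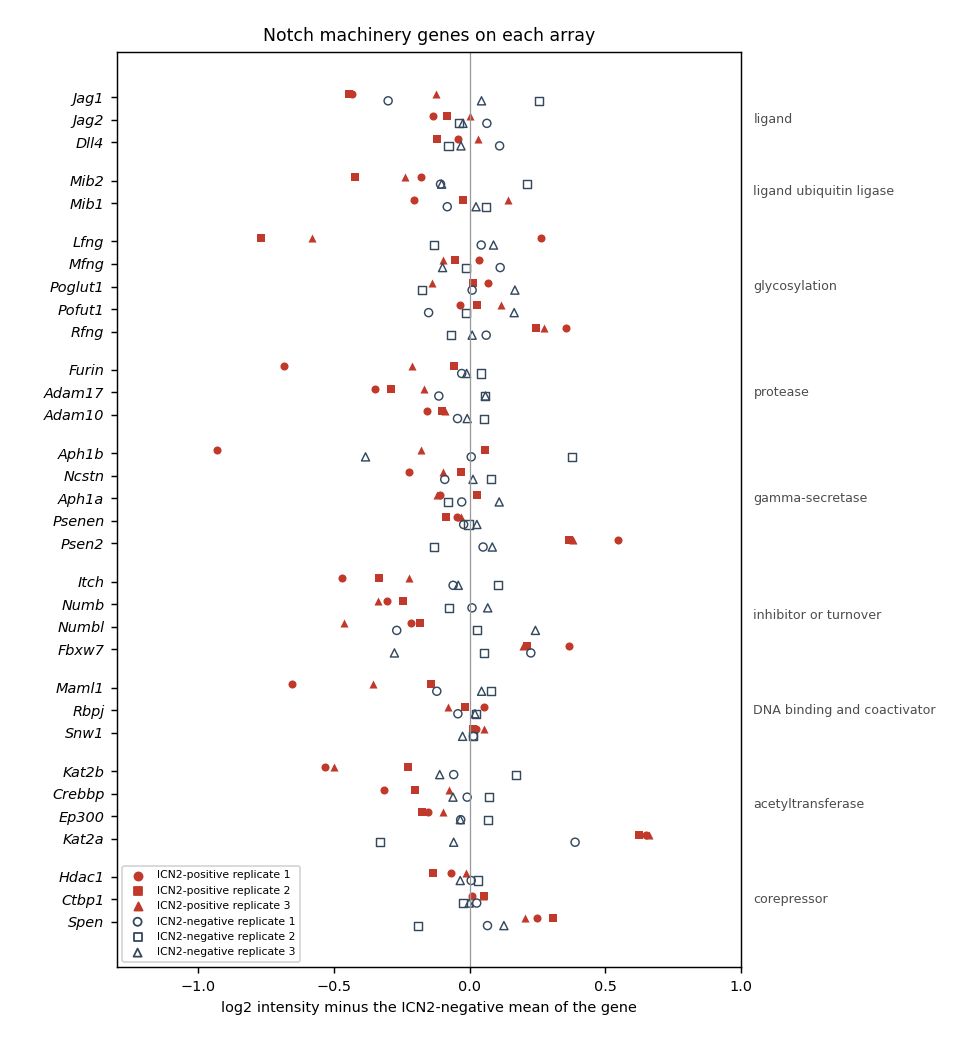
Each array's log2 intensity minus the gene's ICN2-negative mean (x axis) for the 32 members, filled red for ICN2-positive and open for ICN2-negative, with symbols for replicates 1 to 3. In 11 genes all filled points lie left of all open points and in 4 genes, among them Kat2a and Psen2, right of them.

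By their brightest probe sets, the Delta-like ligands were dim. Both Jagged ligands lay above the median of every array (6.05 to 6.09 on the log2 scale) when read in this way. The dimmer Jag2 probe set lay at 5.80 to 6.07, and the dimmer Jag1 probe sets at 5.67 to 6.14 and 4.01 to 4.46. The Delta-like ligand genes Dll1 and Dll3 lay below the 40th percentile on all 6 arrays and were not tested. Dll1 had log2 intensities of 4.34, 4.25 and 4.10 in ICN2-positive cells, against 4.04, 3.96 and 4.01 in ICN2-negative cells, and Dll3 had 4.07, 3.97 and 3.94, against 4.04, 4.09 and 4.01. Dll4, a ligand best known for driving T cell fate in the thymus, was just above the filter, at 5.48 ± 0.077 in ICN2-positive and 5.52 ± 0.098 in ICN2-negative cells (mean ± SD, n = 3 each). Jag2, a Jagged ligand, differed by -0.072 ± 0.070 (difference ± SE). The other Jagged ligand gene, Jag1, had 6.11, 6.10 and 6.42 in ICN2-positive cells, against 6.25, 6.81 and 6.59 in ICN2-negative cells. Its groups overlapped, the difference of -0.34 ± 0.17 missed the threshold (adjusted p = 0.267), and its other tested probe set differed by 0.029. The 8 endothelial and stromal genes read beside these values summed to 410 to 1029 in ICN2-positive cells, against 381 to 564 in ICN2-negative cells. Of these, the endothelial cadherin gene Cdh5 and Lepr lay below the 40th percentile on all 6 arrays. Emcn lay above it on only 1 ICN2-negative array, and Col1a1 on 2 arrays of each group. Pecam1, Kdr, Tek and Cxcl12 lay above it on all 6. Tek, a receptor of endothelial and blood stem cells, had 7.23, 9.28 and 9.07 in ICN2-positive cells, against 7.05, 6.54 and 6.27 in ICN2-negative cells, and was not called (adjusted p = 0.115). The part of these cells in the ligand values was not tested.

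The ubiquitin ligases that activate ligands differed little. Mib1, the main ligase for Delta-like and Jagged ligands, differed by -0.029 ± 0.11. Its relative Mib2 had 8.94, 8.70 and 8.88 in ICN2-positive cells, against 9.01, 9.33 and 9.02 in ICN2-negative cells. All ICN2-positive arrays were below all ICN2-negative arrays, but the difference of -0.28 ± 0.12 was not called (adjusted p = 0.205).

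Sugar transferases modify the receptor's extracellular repeats and set which ligands it answers to. The enzymes that add the first sugars differed little: Pofut1, the O-fucosyltransferase, by 0.036 ± 0.10 and Poglut1, the O-glucosyltransferase, by -0.020 ± 0.11. The Fringe enzymes extend the fucose. Rfng (Radical fringe) had 11.15, 11.04 and 11.07 in ICN2-positive cells, against 10.86, 10.73 and 10.81 in ICN2-negative cells. The groups did not overlap, and the difference of 0.29 ± 0.07 (1.22-fold higher) had an adjusted p of 0.0763. Its second probe set differed by 0.13, in the same direction. Mfng (Manic fringe) differed by -0.039 ± 0.083, with overlapping groups.

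Lfng (Lunatic fringe), the other Fringe enzyme, was the tested member whose ICN2-positive arrays were least alike. It had 10.58, 9.55 and 9.74 in ICN2-positive replicates 1, 2 and 3, against 10.36, 10.19 and 10.41 in ICN2-negative cells. Replicate 1 lay above every ICN2-negative array and replicates 2 and 3 below them all. Over all arrays the difference was -0.36 ± 0.28 (adjusted p = 0.44). Without ICN2-positive replicate 1 it was -0.68 ± 0.11, with an adjusted p of 0.0361, in a fit that called 5.98% of all genes and no other member. The dimmer Lfng probe set showed the same order among ICN2-positive arrays, at 5.58, 5.26 and 5.34, and differed by -0.13, but there replicate 1 did not exceed all ICN2-negative arrays (5.42, 5.41 and 5.75). ICN2-positive replicate 1 was also the array with the low granulocyte-monocyte progenitor sum given above, and the part of that in the Lfng values was not tested.

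**Figure D4:**
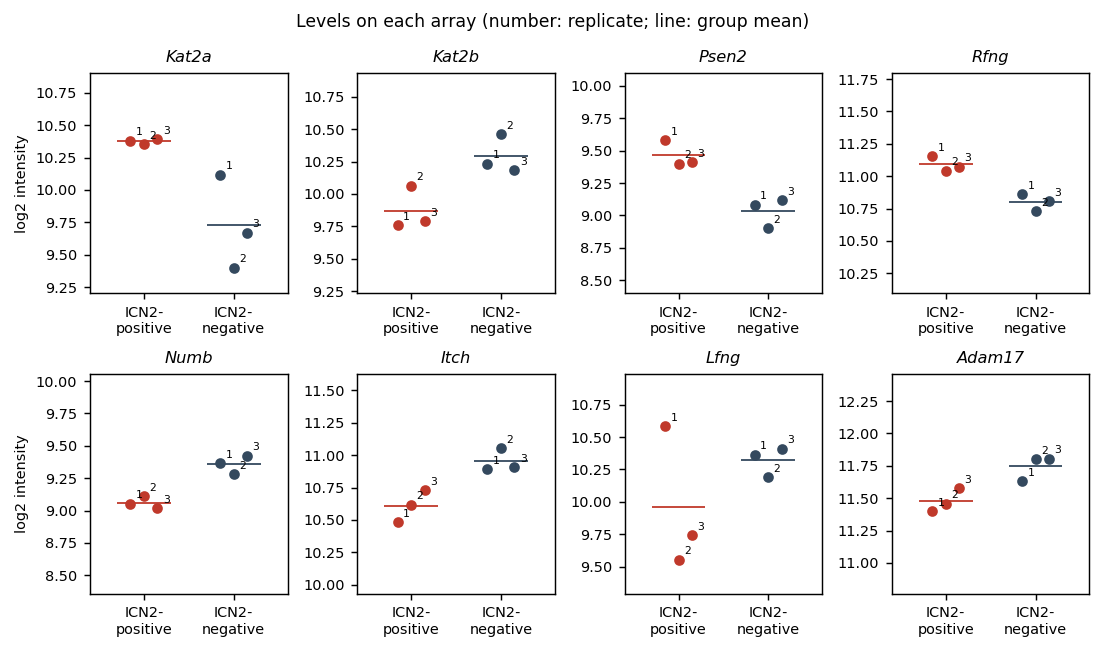
Log2 intensity (y axis, the same span in every panel) of 8 members on the 3 ICN2-positive and 3 ICN2-negative arrays, with replicate numbers beside the points and group means as lines. Groups are separate in all panels but Lfng, where ICN2-positive replicate 1 (10.58) lies above and replicates 2 and 3 (9.55 and 9.74) below the ICN2-negative arrays.

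None of the 3 proteases that act before gamma-secretase was called. Their groups did not overlap, with lower values on the ICN2-positive arrays, as 37.5% of all genes did not overlap in either direction. Adam17, a sheddase of Notch and cytokine receptors, had 11.40, 11.46 and 11.58 in ICN2-positive cells, against 11.63, 11.80 and 11.81 in ICN2-negative cells, a difference of -0.27 ± 0.09 (adjusted p = 0.122). Its other probe sets differed by -0.084 and -0.10. Adam10, the main protease for ligand-dependent Notch cleavage, had 12.41, 12.46 and 12.48, against 12.52, 12.62 and 12.56 (difference -0.12 ± 0.063, adjusted p = 0.289). The gap between the Adam10 groups was narrow, and its other tested probe sets differed by 0.14 and -0.22. Furin, which cuts the receptor precursor on its way to the surface, had 11.60, 12.22 and 12.07 in ICN2-positive cells, against 12.25, 12.32 and 12.27 in ICN2-negative cells. ICN2-positive replicate 1 was the lowest, and without it the difference was -0.14 in place of -0.32.

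Gamma-secretase consists of a presenilin with Ncstn, an Aph1 subunit and Psenen. Psen2, a catalytic presenilin, had 9.58, 9.40 and 9.41 in ICN2-positive cells, against 9.08, 8.90 and 9.12 in ICN2-negative cells. All ICN2-positive arrays were above all ICN2-negative arrays, and the difference of 0.43 ± 0.09 (1.35-fold higher) carried the smallest adjusted p of the list, 0.0645. The second Psen2 probe set was below the filter and differed by -0.050. The other subunits differed by less: Ncstn, the substrate-binding nicastrin, by -0.12 ± 0.084, Aph1a by -0.068 ± 0.083 and Psenen by -0.055 ± 0.059. The groups of Psenen were still separate, by a narrow margin. Aph1b had 5.19, 6.17 and 5.94 in ICN2-positive cells, against 6.13, 6.50 and 5.74 in ICN2-negative cells. It was a dim and scattered gene, with ICN2-positive replicate 1 below the 40th percentile.

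Among genes that restrain Notch, the endocytic adaptor gene Numb had 9.05, 9.11 and 9.02 in ICN2-positive cells, against 9.36, 9.28 and 9.42 in ICN2-negative cells. The groups were separate, and the difference of -0.30 ± 0.07 (1.23-fold lower in ICN2-positive cells) had an adjusted p of 0.0732. Itch, a ubiquitin ligase for Notch, had 10.48, 10.62 and 10.73, against 10.89, 11.06 and 10.91 (difference -0.34 ± 0.09, adjusted p = 0.0959). By their brightest probe sets these genes were separate in the same direction, and neither passed. Their other probe sets, all below the filter, differed by 0.18 for Numb and by -0.097, 0.50 and 0.25 for Itch. With the mean of probe sets, Numb differed by -0.058 and Itch by 0.080. Numbl, the relative of Numb, differed by -0.29 ± 0.15, with overlapping groups. Fbxw7, which marks the intracellular domain for destruction, differed by 0.26 ± 0.14, with a second probe set at 0.14. By their brightest probe sets alone, the median of these 4 genes was -0.29. The means of probe sets given above for Numb and Itch did not reach that size.

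In the nuclear complex that ICN2 itself uses, the DNA-binding component hardly differed. Rbpj, the DNA-binding partner, had 11.50, 11.43 and 11.36 in ICN2-positive cells, against 11.40, 11.47 and 11.46 in ICN2-negative cells. All ICN2-negative values lay within the range of the ICN2-positive values, with a difference of -0.015 ± 0.067 and a 95% interval from -0.18 to 0.15, and its other probe sets differed by 0.092 and 0.25. Snw1, a coactivator that binds the intracellular domain, differed by 0.029 ± 0.058. Maml1, a Mastermind coactivator, had 9.35, 9.86 and 9.65, against 9.88, 10.08 and 10.04 (difference -0.38 ± 0.15, adjusted p = 0.164). Its groups were separate by a narrow margin, ICN2-positive replicate 1 was the lowest, and a second probe set differed by -0.15. Maml2 lay below the 40th percentile on all 6 arrays, from 3.60 to 4.18 in ICN2-positive cells and from 3.82 to 3.85 in ICN2-negative cells, and was not tested.

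Among the acetyltransferases, a pair of paralogs gave the highest and the lowest difference of the list. Kat2a, the Gcn5 acetyltransferase, had 10.38, 10.35 and 10.39 in ICN2-positive cells, against 10.12, 9.40 and 9.67 in ICN2-negative cells. The ICN2-positive arrays lay close together above a spread ICN2-negative group, and the difference was 0.65 ± 0.18 (1.56-fold higher, adjusted p = 0.104). Its 3 probe sets differed by 0.39, 0.65 and 0.75, each with separate groups and none called. Leaving out ICN2-negative replicate 1, the ICN2-negative array with the highest value, gave 0.84 ± 0.11 and an adjusted p of 0.0449, in a fit that called 2.12% of all genes.

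Kat2b, the PCAF acetyltransferase, had 9.76, 10.06 and 9.79 in ICN2-positive cells, against 10.23, 10.46 and 10.18 in ICN2-negative cells. The groups were separate, and the difference was -0.42 ± 0.12 (1.34-fold lower in ICN2-positive cells, adjusted p = 0.107). This value came from a probe set whose name marks it as possibly reading several transcripts. The other tested Kat2b probe set, a dimmer one, differed by 0.017 ± 0.28, so the lower level was not seen there. Ep300 and Crebbp, the p300 and CBP coactivators of the Notch complex, differed by -0.14 ± 0.065 and -0.20 ± 0.087, each with separate groups. The 4 Crebbp probe sets ranged from -0.20 to 0.13.

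Corepressors occupy Rbpj in the absence of Notch. Spen, a large corepressor of Rbpj, had 8.97, 9.03 and 8.93 in ICN2-positive cells, against 8.79, 8.54 and 8.85 in ICN2-negative cells. The groups were separate and the difference of 0.25 ± 0.10 was not called (adjusted p = 0.182). Ctbp1, a corepressor of that complex, differed by 0.037 ± 0.058 and the histone deacetylase gene Hdac1 by -0.073 ± 0.065, both with overlapping groups.

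Different probe sets of a member often disagreed in sign at these sizes. The members had 73 probe sets in all, of which 60 passed the filter and none was called, against 2.65% of 27424 probe sets. For 18 members more than 1 probe set was tested, and in 9 of them all probe sets had the same sign and in 9 they did not. Among these 18, Kat2a was the gene whose probe sets lay farthest from 0 in one direction.

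**Figure D5:**
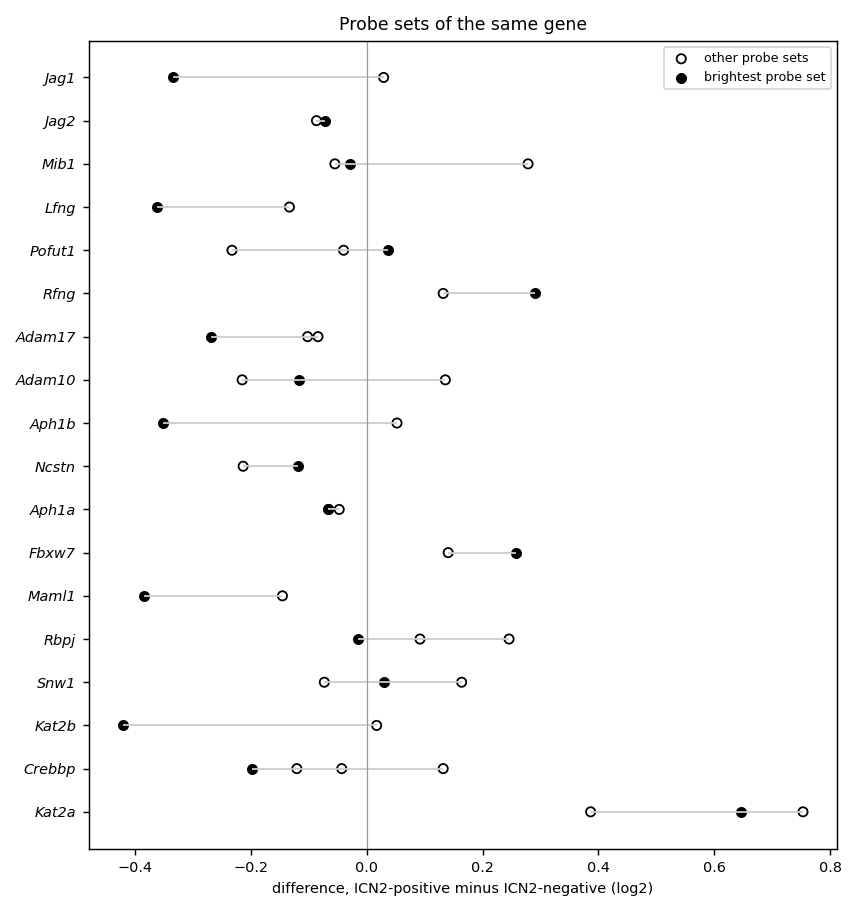
Difference between ICN2-positive and ICN2-negative cells (x axis, log2) for every tested probe set of the 18 members with more than 1, the brightest filled and the others open. In 9 genes the points lie on both sides of 0, while the 3 Kat2a probe sets lie at 0.39, 0.65 and 0.75.

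Beyond these members, 96 further genes of the pathway were listed, of which 87 had a probe set and 80 were tested. Of the 80, 7 rose, 1 fell and 72 did not pass, while over all genes 2.58% were called higher and 1.77% lower. The 7 that rose were 1 receptor gene and 6 target or feedback genes. Of the 4 receptor genes, Notch3 rose, with 7.03, 7.26 and 6.79 in ICN2-positive cells, against 5.17, 4.64 and 4.89 in ICN2-negative cells, with all 3 ICN2-negative arrays below the 40th percentile (at least 3.35-fold higher, adjusted p = 0.00722). Notch1 differed by -0.81, Notch2 by 0.074 and Notch4 by -0.10, and none of these passed. Without ICN2-positive replicate 1, which had 9.28 against 10.84 and 10.45 in the other ICN2-positive arrays, Notch1 differed by -0.35. Averaged over its 2 probe sets, Notch2 differed by 0.46 and passed (adjusted p = 0.031), so its dimmer probe set differed more than the brightest one. ICN2 is itself a part of Notch2, and whether a Notch2 probe set reads the transgene was not tested. Of 18 target and feedback genes tested, 6 rose and 12 did not pass. By sign, 10 of the 18 had higher means in ICN2-positive cells and 8 lower. Dtx4 had the lowest difference, -2.39, with 6.66, 9.30 and 9.18 in ICN2-positive cells, against 10.47, 10.95 and 10.88 in ICN2-negative cells. Its groups did not overlap, and it was not called (adjusted p = 0.115). Hey1, a repressor induced by Notch, differed by 3.27 ± 0.27 and Nrarp, a feedback inhibitor, by 2.15 ± 0.20. Hey2, a relative of Hey1, was at least 1.71-fold higher (adjusted p = 0.0128). Hey2, Notch3 and the called genes Dtx1 and Il2ra had all 3 ICN2-negative arrays below the 40th percentile. They passed the filter only through the ICN2-positive arrays, where they were high, so their calls carry that selection. The calls of Nrarp and Hey2 were lost without ICN2-negative replicate 3 (adjusted p = 0.0562 and 0.0725) and that of Hey2 also without ICN2-negative replicate 2 (adjusted p = 0.0757).

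Outside targets and receptors, 1 gene of the other lists of machinery passed. Tspan17, a tetraspanin partner of Adam10, had 6.33, 6.38 and 6.42 in ICN2-positive cells, against 6.76, 6.73 and 6.67 in ICN2-negative cells. It fell by 0.34 on the log2 scale (adjusted p = 0.0481), and the call was lost on leaving out any array (adjusted p = 0.068 to 0.16). It was also lost without the filter, with an offset of 32 before the log, with a trended and robust eBayes fit and with the mean of probe sets (adjusted p = 0.064, 0.0599, 0.1 and 0.102). None of 9 genes of ligand uptake passed, with Neurl2, a relative of the Neuralized ligases, at -0.85 (adjusted p = 0.0672). None of 9 further glycosylation genes passed, with the galactosyltransferase gene B4galt1 at -0.28 (adjusted p = 0.0658), which passed with the trended and robust fit (0.0182) and with the filter at the 60th percentile (0.0489). None of 14 genes of endocytosis and turnover passed, with the ubiquitin ligase gene Nedd4l at 0.44 (adjusted p = 0.0645). None of 15 further nuclear genes passed, with the histone demethylase gene Kdm5a at 0.37 (adjusted p = 0.0693).

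Weighting the arrays by their scatter changed the count of members called to 8, 3 higher (Psen2, Rfng and Kat2a) and 5 lower (Maml1, Lfng, Numb, Numbl and Kat2b), but that fit called 25.4% of all genes, and 8 of 32 is near that background. It gave ICN2-positive replicate 3 a weight of 5.72 and ICN2-positive replicate 1 a weight of 0.24.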

How the data were processed

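Affymetrix mouse expression arrays were hybridised with cDNA amplified from 5 ng of total RNA, per the labels' protocols. The deposited values are linear intensities, 1 for each array and probe set, summarised by the authors using RMA, per the submitters' processing notes; version and build are not given in the sources used here. RMA forces like distributions on the arrays, so a change in total RNA would not be seen, and no measured background lies behind the values. Here log2 was taken, 64 control probe sets were left out, and probe sets with exactly 1 gene in the platform annotation (34945) were named. Groups were compared without covariates by lmFit and eBayes (limma 3.58.1, R 4.3.3), with Benjamini-Hochberg adjustment over 12834 genes (or 27424 probe sets) and a threshold of 0.05. Differences are log2 values of ICN2-positive cells minus those of ICN2-negative cells. "At least" folds are set against the 40th percentile, a limit of the filter chosen after the values were seen. The fit was tested on simulated data. The number of arrays limits the precision. Members and lists were chosen with earlier results of these data known. Named genes were all members, the receptors, the sex-linked genes and, of each other pathway list, up to 4 called genes or the one with the smallest p. Dtx4 was named in addition for its low difference, and Dtx1 and Il2ra for how they passed the filter. Marker genes were named as examples after their values were seen. Of the listed genes, those without a probe set of their own were not analysed here.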

Additional observations from a re-analysis of the deposited data

How the results depend on the processing

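Across 17 alternatives, 507 of 538 member differences kept their sign and their side of the threshold, 14 crossed it upwards and 17 changed sign. In some alternatives a member's difference could not change, so the tally is no measure of robustness. These were no filter, the 60th percentile filter, the trended and robust fit, the replicate block and the threshold of 0.10. At 0.10 only the threshold moved, so members that crossed there kept their p-values. With array weights, 3 members were called higher and 5 lower, 6 member probe sets and 24 other pathway genes were called, beside 25.4% of all genes. At an adjusted p of 0.10, 2 members were higher and 2 lower, 2 member probe sets and 15 other pathway genes were called, and 12.5% of all genes were called, the same share as the members. With a filter at the 60th percentile 4 other pathway genes were called, and Notch3, Hey2 and Tspan17 were no longer tested. With the mean of probe sets 9 of 31 members (29.0%) had separate groups, against 37.5% of all genes. With single arrays left out, 0 to 1 members were called higher and 0 to 1 lower (Kat2a without ICN2-negative replicate 1, Lfng without ICN2-positive replicate 1), the members' median was -0.11 to -0.065, and 3 to 9 other pathway genes were called. The low counts were 3 (ICN2-negative replicate 3 left out), 4 (replicate 2 of that group left out) and 5 (ICN2-positive replicate 2 left out).

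Same-numbered arrays deviated from their group means with correlations of 0.18, 0.13 and 0.093, and unlike-numbered arrays with -0.22 to 0.16. These values do not settle whether the numbers pair the samples, and the main fit did not pair them. With the replicate number as a replicate block, 0 members were called (smallest adjusted p = 0.0707, for Kat2b) and 341 genes in all, against 558. Neurl2 was then called (adjusted p = 0.0454) and Tspan17 was not (0.0965).

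Signs that changed were those of small differences, except for Itch, Kat2b and Adam10 read by other probe sets, and the cause was not tested. With the mean of probe sets, Rbpj was at 0.11, Adam10 at 0.12, Pofut1 at -0.079, Itch at 0.080 and Mib1 at 0.065. With the possibly cross-reading probe sets removed, Kat2b was at 0.017. With array weights, Dll4 was at 0.022 and Mib1 at 0.11. With single arrays left out, Dll4 was -0.084 to 0.011, Mfng -0.089 to 0.017, Pofut1 -0.040 to 0.12, Poglut1 -0.11 to 0.063, Rbpj -0.049 to 0.018, Mib1 -0.11 to 0.059 and Notch4 -0.25 to 0.10.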
